A study of Solanum lycopersicum with 6 samples.

Results

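DML1, DML2, DML3 and DML4 are the tomato DEMETER-like DNA demethylase genes. They were looked up by the Solyc locus identifier in the deposited table of genes that differed between jmj7 and WT fruit. DML1 (Solyc09g009080.3) and DML2 (Solyc10g083630.2) have a row, 2 of the 8703 genes in that table, and both passed the low-count filter. DML3 (Solyc11g007580) and DML4 (Solyc03g123440) have no row there and were not analysed here. The table holds only genes that the authors had called, so DML3 and DML4 were not among those calls. All 4 symbols are in the reference gene table on the chromosome that the identifier names, which is chromosome 9 for DML1, 10 for DML2, 11 for DML3 and 3 for DML4.

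RNA was sequenced from the equatorial pericarp, the fleshy fruit wall, of tomato (Solanum lycopersicum) fruit at 38 days after anthesis. The jmj7 transgenic lines and the WT plants were both of the Ailsa Craig background, shared the same greenhouse regime and gave 3 libraries each. The kind of transgene or allele in jmj7, and how many lines were used, are not stated in the sources used here. The columns taken as jmj7 carry a prefix found in no sample label, and belong to jmj7 only because the other columns are named WT, so each direction below depends on that reading. The identifier of JMJ7 itself is paired with no symbol in the sources used here, so the targeted gene gave no check of the labels.

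DEMETER-like enzymes are DNA glycosylases that cut 5-methylcytosine out of DNA, after which base excision repair puts an unmethylated cytosine in its place. They act against the methyltransferases that set and copy methylation, so both kinds of enzyme together govern how much methylation a promoter keeps. In tomato, DML2 is known as the main demethylase of ripening fruit, and fruit that lack it keep methylation at ripening gene promoters and ripen poorly. The title of the series places JMJ7, a histone demethylase, beside DNA demethylation in fruit ripening, which is the question that the values of these genes bear on.

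DML2 and DML1 changed in opposite directions. DML2 was 5.16-fold higher in jmj7 than in WT, whereas DML1 was 8.03-fold lower. Their transcripts together were higher in jmj7, and nearly all of them came from DML2.

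DML2, the fruit demethylase, had 24485, 23819 and 23813 normalized counts in the jmj7 libraries, against 4709.8, 4521 and 4740.4 in the WT libraries. A normalized count is the read count divided by the size factor that the authors used for that library. The groups were far apart: the lowest jmj7 library was 5.02 times the highest WT library. The means were 24039 ± 386 in jmj7 and 4657 ± 119 in WT (SD, n = 3 each). The log2 fold change of DML2 was 2.37 ± 0.0346 (SE), with an adjusted p of 1.06e-36 in edgeR's quasi-likelihood test.

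DML1, a related demethylase gene, had 174, 157 and 156 normalized counts in the jmj7 libraries, against 1360.4, 1231 and 1334 in the WT libraries. All 3 jmj7 libraries were low, and the lowest WT library was 7.09 times the highest jmj7 library. The means were 162 ± 10.1 in jmj7 and 1309 ± 68.2 in WT (SD, n = 3 each), and the log2 fold change of DML1 was -3.005 ± 0.0839 (SE; edgeR adjusted p = 7.63e-30). In the authors' deposited table the log2 fold changes are 2.37 for DML2 and -3.01 for DML1.

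**Figure D1:**
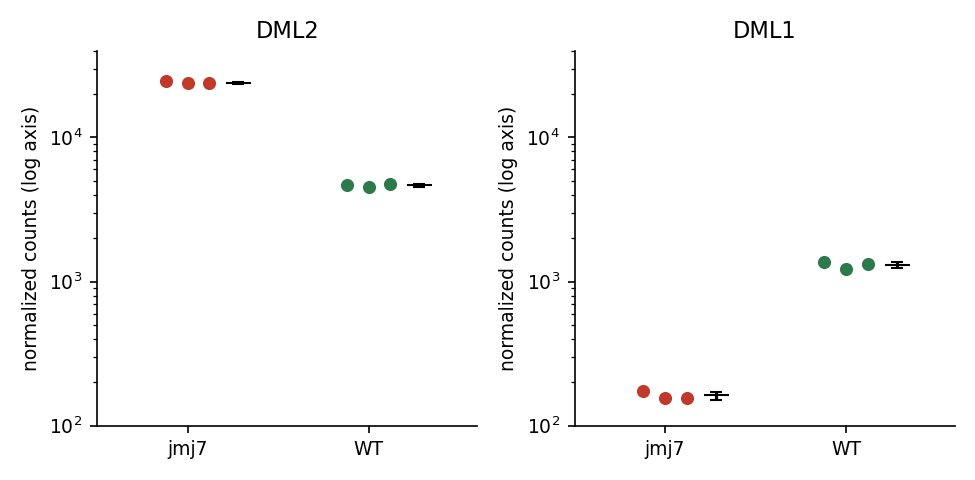
Normalized counts (log axis) of DML2 and DML1 in each of the 3 jmj7 and 3 WT libraries; points are libraries, and the bar beside each group is its mean with the SD. DML2 lies near 24039 in jmj7 and 4657 in WT, whereas DML1 lies near 162 in jmj7 and 1309 in WT.

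These calls carry little weight by themselves, because the table holds only genes that the authors had already called. Of its 8703 genes, 7622 passed the filter and 100% of those were called, 37.2% of them higher and 62.8% lower in jmj7. With size factors recomputed over the table, 47.3% of the called genes were higher. The groups did not overlap for 99.7% of the 7622 genes. The sizes were not extreme within this table either. Of the 2837 genes that were higher, 28.9% had a larger fold change than DML2, and of the 4785 that were lower, 39.9% had a larger one than DML1.

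The sizes of both changes moved with how the libraries were scaled, while their directions did not. With size factors recomputed from the listed genes, DML2 was 12.1-fold higher and DML1 3.43-fold lower. With total reads in the table's genes as the scale, DML2 was 2.51-fold higher and DML1 16.5-fold lower. On the authors' FPKM scale, which is per length and per total reads, the log2 ratio of group means was 1.81 for DML2 and -3.57 for DML1, a shift of -0.56 from the normalized counts for each gene. The distance of each gene from the median of all genes tested varied less between the edgeR scalings. With the deposited size factors, DML2 stood at 3.80 and DML1 at -1.57 relative to the median (log2). Across the other edgeR scalings DML2 stood at 3.73 to 3.86 and DML1 at -1.64 to -1.51.

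**Figure D2:**
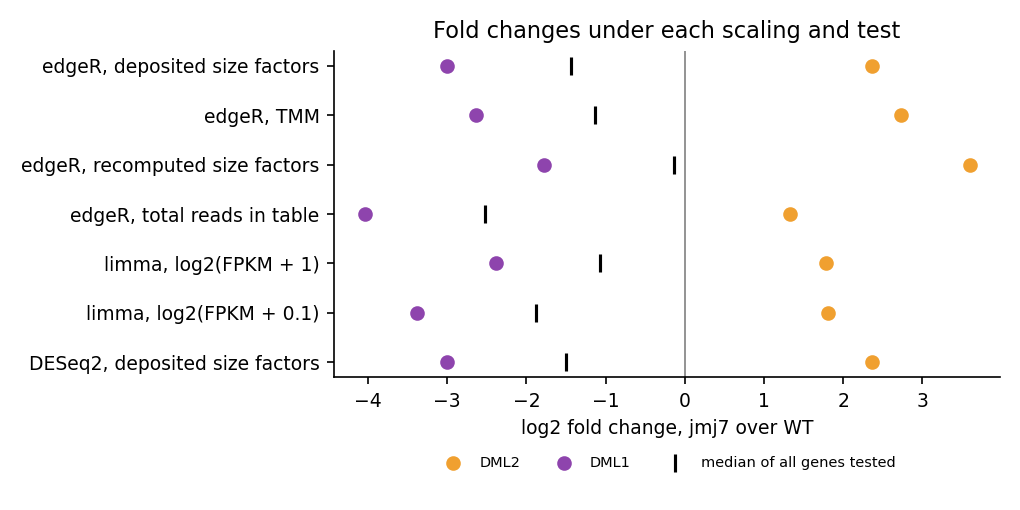
Log2 fold change (jmj7 over WT) of DML2 and DML1 under 7 combinations of scaling and test, with the median of all genes tested as a black tick. DML2 stays right of 0 and DML1 left of 0 in each; both shift with the median between the edgeR scalings, but with limma on log2(FPKM + 1) the median is higher and DML2 lower than with the deposited size factors.

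The balance between both genes within a library does not depend on the scaling. The gap between the DML2 and DML1 log2 fold changes was 5.37 ± 0.0907 (SE, both errors combined). Levels of different genes can be compared only per length. The ratio of reads to FPKM shows that the authors' length for DML1 was 1.44 times that for DML2, so read counts alone understate the excess of DML2.

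In FPKM, DML2 had 139, 135 and 135 in the jmj7 libraries, against 39.7, 37.4 and 39.3 in the WT libraries. DML1 had 0.682, 0.614 and 0.611 FPKM in the jmj7 libraries, against 7.95, 7.06 and 7.68 in the WT libraries. DML2 was therefore the more abundant of the pair in each library of both groups. Its FPKM was 203, 219 and 221 times that of DML1 in the jmj7 libraries, against 4.99, 5.29 and 5.12 times in the WT libraries. The mean ratio was 214 ± 9.56 in jmj7 and 5.14 ± 0.152 in WT (SD, n = 3 each), 41.7 times as high in jmj7. With 3 libraries per group, the smallest p that a two-sided exact permutation test can give is 0.10, so no such test could pass 0.05 here.

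Summed over DML1 and DML2, the FPKM was 139, 135 and 135 in the jmj7 libraries, against 47.6, 44.4 and 47.0 in the WT libraries. The mean sum was 2.95 times as high in jmj7, 137 ± 2.34 against 46.4 ± 1.70 FPKM in WT (SD, n = 3 each). The fall of DML1 took little from this sum, since DML1 was the smaller part even in WT. DML2 made up 99.5% ± 0.0212 of the sum in jmj7 and 83.7% ± 0.403 in WT (SD, n = 3 each). DML1 made up 0.465% ± 0.0212 in jmj7 and 16.3% ± 0.403 in WT. DML3 and DML4 have no part in these sums and shares. The size of the sum moves with the scaling of the libraries, and the shares move with whether values are per length. In normalized counts, which are not per length, the sum was 4.06 times as high in jmj7, and DML2 made up 99.3% of it in jmj7 and 78.1% in WT.

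**Figure D3:**
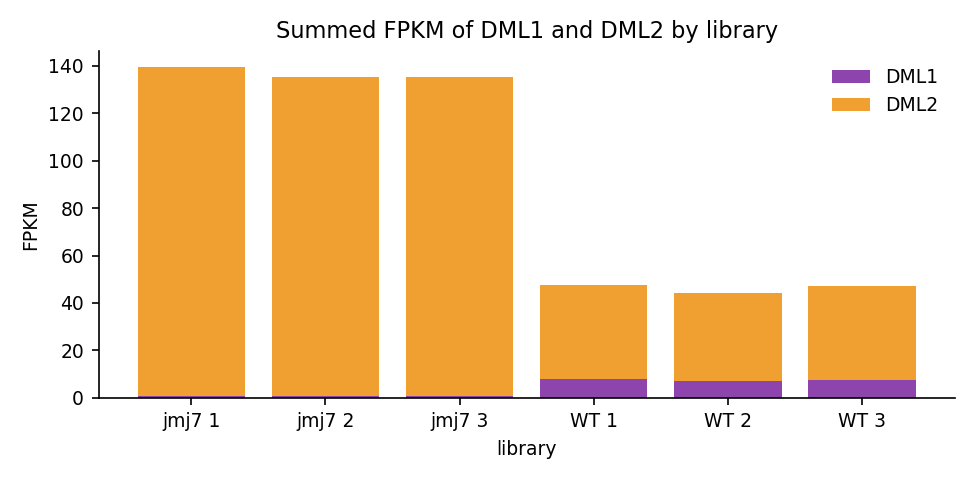
FPKM of DML1 (purple, lower part) and DML2 (orange, upper part) stacked for each jmj7 and WT library. The jmj7 bars reach 135 to 139 FPKM and show almost no DML1, whereas the WT bars reach 44.4 to 47.6 FPKM with a visible DML1 part.

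The place of DML2 among the table's genes also differed between the groups. By mean FPKM, 379 of the 8703 genes (4.35%) stood above DML2 in jmj7, against 1212 (13.9%) in WT. For DML1 the share of genes above it was 58.8% in jmj7 and 43.3% in WT. DML2 was thus among the more abundant transcripts of this table in jmj7, and DML1 sat below its middle.

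Replicates of DML2 differed little, with a coefficient of variation of 1.61% in jmj7 and 2.55% in WT. Counting error alone would give 0.698% in jmj7 and 1.35% in WT, so the DML2 replicates varied by more than counting. DML1 rested on fewer reads, 427 over the jmj7 libraries and 4641 over the WT libraries. Its coefficient of variation in jmj7, 6.22%, was no larger than the 8.48% that counting error gives, and in WT it was 5.22% against 2.55% from counting. The exact 95% Poisson interval for the pooled DML1 level in jmj7 ran from 148 to 179 normalized counts, all far below the WT level. Such an interval covers counting error only.

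With the deposited size factors, the 6 listed enzymes and cofactors of DNA methylation that have a row were lower in jmj7. Of 17 listed genes, 11 have no row and were not analysed here, 6 were tested, 6 fell and 0 rose (edgeR adjusted p under 0.05), although AGO4A was higher with size factors recomputed over the table (log2 fold change 0.12). The table holds only genes that the authors had called. The 11 genes without a row were not among those calls, so no fall is shown for them. A call was certain for each gene tested, and 62.8% of all genes tested were lower. The median log2 fold change of the 6 genes was -2.11, beside -1.43 over all genes tested. DML2 is therefore the single gene of the 8 tested demethylase and methylation genes that was higher in jmj7 with the deposited size factors.

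MET1 (Solyc11g030600.3), the methyltransferase that copies CG methylation after replication, had 3.51, 3.11 and 3.08 FPKM in the jmj7 libraries, against 15.1, 15.6 and 16.4 FPKM in the WT libraries. CMT2 (Solyc12g100330.2), a chromomethylase, which methylates cytosines outside CG sites, had 6.98, 7.32 and 6.74 FPKM in the jmj7 libraries, against 28.3, 29.4 and 32.0 FPKM in the WT libraries. For both genes the groups were well apart. The log2 fold changes of the counts were -1.71 ± 0.0635 for MET1 and -1.54 ± 0.0588 for CMT2 (SE; edgeR adjusted p = 1.11e-24 and 3.89e-24).

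The other chromomethylase genes had lower FPKM than MET1 and CMT2 in each group. CMT4 (Solyc08g005400.3) had 0.367 ± 0.0233 FPKM in jmj7 and 4.18 ± 0.190 in WT (SD, n = 3 each), a log2 fold change of the counts of -2.95 ± 0.235 (SE; edgeR adjusted p = 2.71e-16). CMT3 (Solyc01g006100.3) had 3 reads over the jmj7 libraries and 143 over the WT libraries. The reads of each group, summed and scaled by its size factors, were 35.2 times lower in jmj7, with an exact 95% counting interval from 11.8 to 173. This value leans on single reads: without jmj7 replicate 3 it was 73.8 times lower, on 1 read in jmj7.

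AGO4A (Solyc01g008960.3), an Argonaute of RNA-directed DNA methylation, was the most abundant of these genes, with 35.3 ± 1.17 FPKM in jmj7 and 112 ± 1.32 in WT (SD, n = 3 each). Its log2 fold change of the counts, -1.11 ± 0.0382 (SE; edgeR adjusted p = 3.17e-25), was the smallest of the 6. The sixth gene, Solyc02g085390.3, whose symbol the reference does not hold, was 5.70-fold lower in jmj7.

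In FPKM, the level of DML2 relative to the 4 methyltransferase genes with a row turned round between the groups. The FPKM of MET1, CMT2, CMT3 and CMT4 summed to 10.8, 10.8 and 10.2 in the jmj7 libraries, against 48.6, 49.7 and 53.3 in the WT libraries. DML2 was 12.8, 12.4 and 13.2 times this sum in the jmj7 libraries, against 0.816, 0.752 and 0.739 times in the WT libraries. Per length, it thus exceeded these 4 genes together in each jmj7 library and fell short of them in each WT library. The mean FPKM ratio was 12.8 ± 0.390 in jmj7 and 0.769 ± 0.0411 in WT (SD, n = 3 each), 16.7 times as high in jmj7. In normalized counts, which are not per length, DML2 exceeded the sum in both groups. It was 22.5, 22.3 and 23.5 times the sum in the jmj7 libraries, against 1.47, 1.35 and 1.33 times in the WT libraries. This measure was chosen after the values were seen. Only genes that the authors had called could enter the sum, and the methyltransferases without a row are not in it. As DML2 was higher and each of the 4 was lower, a higher ratio in jmj7 was fixed by which genes have a row. The ratio does not show the balance of DML2 with all methyltransferases.

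**Figure D4:**
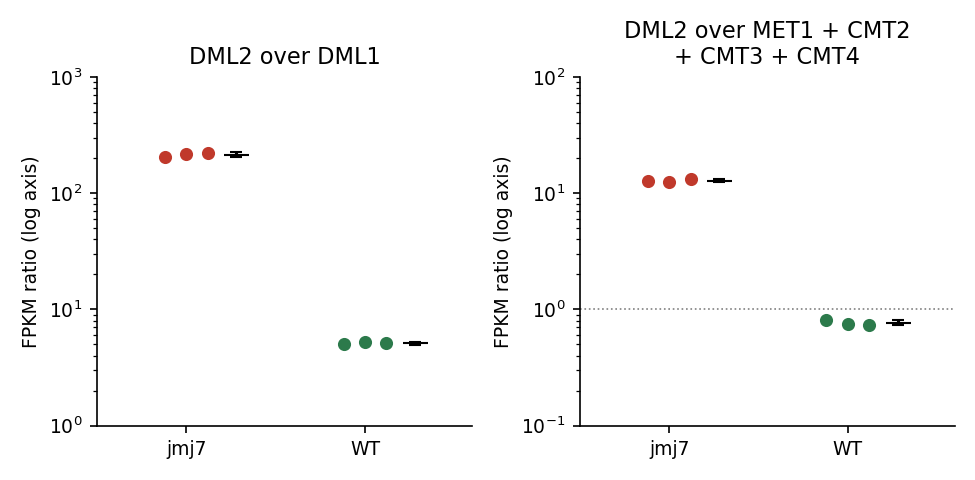
FPKM ratios (log axes) of DML2 over DML1, and of DML2 over the sum of MET1, CMT2, CMT3 and CMT4, in each jmj7 and WT library; bars are the mean with the SD. The first ratio lies near 214 in jmj7 and 5.14 in WT, and the second near 12.8 in jmj7 and 0.769 in WT, on either side of the dotted line at 1.

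RIN, NOR, CNR and PSY1 are ripening genes whose promoters are known to lose methylation in ripening tomato fruit with demethylase activity. RIN, NOR and CNR encode transcription factors of ripening, and PSY1 encodes the phytoene synthase that starts carotenoid synthesis. All 4 were tested and rose in jmj7 (edgeR adjusted p under 0.05), by more than DML2 in 3 cases; of all genes tested, 100% were called and 37.2% were higher. The log2 fold change was 10.63 ± 0.191 for RIN, 6.85 ± 0.0366 for PSY1, 6.01 ± 0.0567 for NOR and 2.12 ± 0.0361 for CNR (SE).

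Per length, DML2 at 136 ± 2.30 FPKM in jmj7 stood below all 4 of them, with CNR at 394 ± 4.25, NOR at 399 ± 10.8, RIN at 586 ± 15.8 and PSY1 at 5690 ± 185 FPKM (SD, n = 3). In WT, DML2 at 38.8 ± 1.25 FPKM stood above RIN at 0.532 ± 0.138 and NOR at 9.09 ± 0.366 FPKM, and below PSY1 at 72.4 ± 3.80 and CNR at 133 ± 6.30 FPKM (SD, n = 3). In jmj7 the levels of CNR and NOR did not differ beyond their spread, and the other neighbours in each order did.

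**Figure D5:**
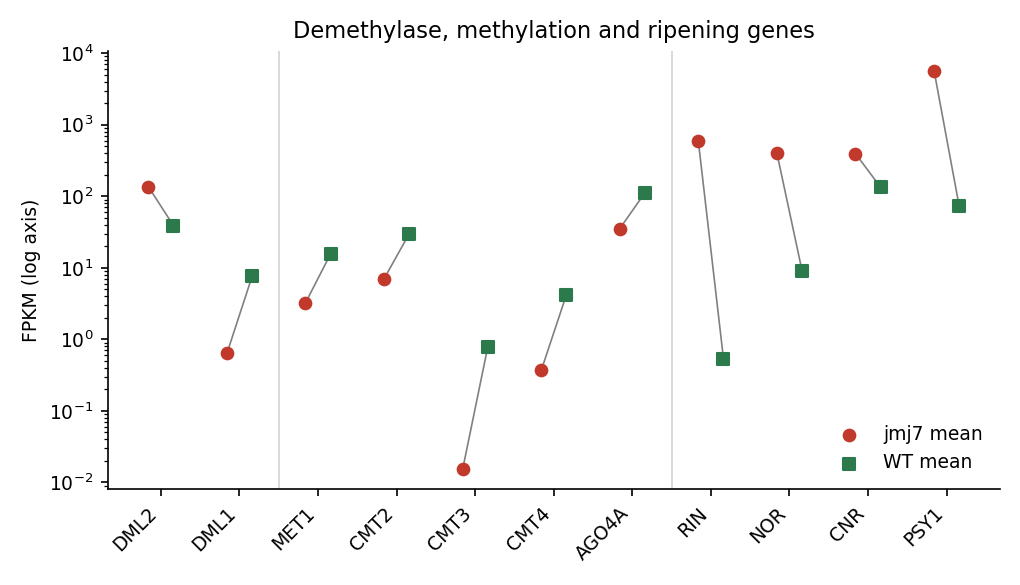
Mean FPKM (log axis) in jmj7 (circles) and WT (squares) of DML2 and DML1, of 5 methylation genes and of 4 ripening genes, with lines joining the groups. DML2 and the ripening genes are higher in jmj7, and DML1 and the methylation genes are lower.

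Genes whose profile over the 6 libraries was most like that of each member were sought among 4673 genes with a mean of at least 100 normalized counts. Likeness was the Euclidean distance between log2 profiles, each centred on its own mean. The profiles span both groups, so genes chosen this way have a fold close to that of the member. The nearest to DML2 were Solyc03g097120.3 and Solyc07g042440.3, at 0.0571 and 0.0677 log2 units. They were 5.17-fold and 5.16-fold higher in jmj7, almost the fold of DML2. The nearest to DML1 were Solyc01g104432.1 and Solyc08g041710.3, at 0.128 and 0.153 log2 units, which were 8.24-fold and 7.84-fold lower. The sources used here do not pair these identifiers with names. Among the listed genes, CNR was nearest to DML2 at rank 137, and MET1 was nearest to DML1 at rank 1086.

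The genes next to DML2 moved in both directions, while those tested next to DML1 were lower, as DML1 was. Within 100 locus numbers of DML2, which are steps along the chromosome in the identifier, 7 genes have a row; of these 2 rose and 5 fell in jmj7 (edgeR adjusted p under 0.05). The highest, 90 numbers on from DML2, had 5668 ± 104 normalized counts in jmj7 and 706 ± 20.1 in WT (SD, n = 3 each). The lowest by fitted log2 fold change, 45 numbers on, had 0 reads over the jmj7 libraries and 2496 over the WT libraries. It was at least 615-fold lower if 3 reads are taken as the floor for the whole jmj7 group, with libraries scaled as deposited. The gene 40 numbers on was also almost absent from jmj7, with 0.422 ± 0.731 normalized counts against 1236 ± 20.2 in WT (SD, n = 3 each). With so few jmj7 reads, which of them fell more is not settled. Around DML1, 5 genes have a row and 4 were tested, of which 4 fell. Their fold changes ran from 2.26-fold lower, 60 numbers on, to 8.59-fold lower, 40 numbers before DML1. With recomputed size factors the gene 60 numbers on had a log2 fold change of 0.0502 and no call (edgeR adjusted p = 0.733). Over all genes tested 37.2% were higher and 62.8% lower, and these windows hold too few genes to set against that.

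Stage and tissue markers also differed between the groups. All 5 markers of ripe fruit (PG2a, PSY1, E8, ACS2 and SGR1) were higher in jmj7, with a summed level of 35268 to 37119.6 FPKM in the jmj7 libraries, against 118 to 130.2 in the WT libraries. Both markers of green fruit, GLK2 and PG-beta, were lower, with a summed level of 3.003 to 3.806 FPKM in the jmj7 libraries, against 1282 to 1367 in the WT libraries. Fruit of both groups had the same age, so a difference in ripening stage and other effects of the genotype on DML1 and DML2 cannot be told apart. Of 8 markers of the epidermis and cuticle, 6 have a row and 6 were lower in jmj7. They summed to 174 to 186 FPKM in the jmj7 libraries, against 1001 to 1113 in the WT libraries. Most of this sum came from Solyc10g075100.2, with 180 ± 5.71 FPKM in jmj7 and 845 ± 54.4 in WT (SD, n = 3 each). Its log2 fold change of the counts was -1.68, the smallest fall of the 6, beside a median of -1.43 over all genes tested. The log2 fold change was -3.40 for Solyc01g094750.3 and -5.24 for Solyc10g075110.2, which had 2 reads over the jmj7 libraries. CD1, GPAT6 and Solyc08g081220.1 had 0 reads in jmj7. These counts are to be read against the table as a whole, in which 37.2% of the genes tested were higher and 62.8% lower. The part of these markers in the DML1 and DML2 results was not tested. In whole pericarp, fewer cells of a type and less RNA per cell cannot be told apart.

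The table's genes took 10937853 to 15254146 reads per jmj7 library and 7508105 to 9155968 per WT library; these are parts of each library and not its depth. No label states whether replicates were taken from different plants or fruits, so the p-values measure only the spread between these libraries.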

How the data were processed

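Reads were aligned with HISAT2, per the submitters' processing notes; which version, build, counter and strand setting were used is not stated in the sources used here. Per the file headers, the deposited table gives each library's read counts and FPKM. It also holds a deposited signal, here named normalized count, which is the reads over a size factor that is constant within a library. Log2 fold changes and p-values by the authors are in the same table, per the file headers; the smallest absolute log2 fold change is 1.00 and the largest p-value 0.0499, so the table was selected before deposit.

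The test on read counts was edgeR's (version 4.0.16, R 4.3.3; glmQLFit, glmQLFTest, prior count 0.125, filterByExpr minimum count 10), scaled by the deposited size factors, with Benjamini-Hochberg adjustment over all genes tested and a threshold of 0.05. The SE is a Wald error, never below counting error. The fit was tested on simulated data in which most genes were unchanged, unlike in this table of called genes. Alternatives used TMM, recomputed size factors, total reads in the table, other filters, DESeq2 1.42.0, limma 3.58.1 on log2(FPKM + 1) and log2(FPKM + 0.1), a replicate block and each library left out; the low-count filter was applied again under each edgeR scaling. Chi-square values per gene between replicates of a group were 1.63 to 3.63, above sampling noise. Members, lists and scaling were chosen with earlier results of these data known. Named genes were the members, listed genes with a row, the 2 nearest profiles to each member and the highest and lowest neighbouring loci. Symbols were printed only where the reference (assembly SLM_r2.1, without Solyc identifiers) has them on the same chromosome; 1 epidermis identifier whose symbol lies on another chromosome was dropped.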

Additional observations from a re-analysis of the deposited data

How the results depend on the processing

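DML1 and DML2 kept their direction and call under all 15 alternatives, with log2 fold changes from -4.04 to -1.78 and from 1.33 to 3.60. Most genes of this table were called under each alternative, so a kept call does not set DML1 or DML2 apart. The lowest share was with recomputed size factors, where 6391 of 7554 genes tested were called. Leaving out 1 library gave -3.07 to -2.98 for DML1 and 2.35 to 2.38 for DML2. The scalings moved the median of all genes tested by 0.31 (TMM), 1.30 (recomputed size factors) and -1.09 (total reads in the table). With recomputed size factors 1 gene of the methylation list was called higher, AGO4A, at 0.12 (edgeR adjusted p = 0.0052). The median of that list, -2.11, became -1.74 with TMM, -0.88 with recomputed size factors, -3.15 with total reads, -1.78 and -2.49 with limma on log2(FPKM + 1) and log2(FPKM + 0.1), and -1.54 with a filter of 5 FPKM in 3 libraries. This filter tests fewer genes (4800): it left 2607 genes called lower, 3 lower genes in the methylation list and 3 near DML2.

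Of 444 values for the other 30 named genes, 442 kept direction and call; besides AGO4A, the exception was the gene 60 locus numbers on from DML1, at 0.0502 with recomputed size factors; most had been chosen as called genes, so this says little about other genes. Same-numbered libraries did not deviate together (correlations of -0.02, 0.02 and -0.01), so the numbers are not taken as pairs. With the replicate block, DML1 had a log2 fold change of -3.01 and DML2 of 2.37, the methylation list a median of -2.11, and 2837 and 4785 genes were called higher and lower. Mean within-number differences equal the differences between group means by arithmetic, so they are no check on pairing. They were 5.38 for the log2 FPKM ratio of DML2 over DML1, 15.8 percentage points for the DML2 share, 1.56 for the log2 summed FPKM and 4.06 for the log2 ratio of DML2 over the methyltransferases. Adding 1 FPKM to each gene lowered the first of these to 4.17. The 427 reads of DML1 in jmj7 limit its precision more than any other value of the pair.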
